A study of Mus musculus with 6 samples.

Results

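The kallikrein-related peptidases and their partners in the shedding of the skin surface were followed through sorted basal keratinocytes of the mouse ear. The set was chosen by name and holds 10 of the 49671 genes in the table: the kallikrein genes Klk5, Klk6, Klk7, Klk8, Klk10, Klk11, Klk13 and Klk14, the inhibitor gene Spink5 and the substrate gene Cdsn. All 10 were found, and 9 passed the filter on low reads, Klk14 being the exception. The study compared the sexes, and castrated with intact males, in epidermal stem cells, with 3 groups of CD1 mice, an outbred stock: castrated males, females and intact males. From the ear epidermis live cells with integrin alpha 6 and without CD34 on their surface were sorted, 100000 per library, and polyA RNA was sequenced. Each group had 2 libraries, and each library pooled 2 mice from 1 litter. Pools are thus the replicates behind every p-value, and litter and group cannot be told apart. Neither the age of the mice nor the time of castration is given in the labels.

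Cornified cells at the skin surface are held together by corneodesmosomes, junctions built from desmoglein, desmocollin and corneodesmosin. Kallikreins are serine proteases that are secreted by differentiated keratinocytes and cut these proteins, so that the outermost cells come off. In the upper epidermis LEKTI, the product of Spink5, holds the proteases in check, and in humans its loss causes Netherton syndrome, in which the surface is shed too early.

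The 8 kallikrein genes lie within 160.764 kb of chromosome 7 (chr7:43690418-43851181, GRCm38), all on the + strand, in the order Klk14, Klk13, Klk11, Klk10, Klk8, Klk7, Klk6 and Klk5. Klk12 lies between Klk13 and Klk11, and Klk9 lies between Klk10 and Klk8. Cdsn lies on chromosome 17 (chr17:35552128-35557180), also on the + strand. Promoter windows, from 250 bases before to 50 after the gene start, were taken from RefSeq (GRCm38.p6) for 9 of the 10 genes. Spink5 was left out of this step. Those of the 4 genes called between females and males are shown because these genes share a cluster and a direction. They are chr7:43712317-43712616 for Klk13, chr7:43780804-43781103 for Klk10, chr7:43811044-43811343 for Klk7 and chr7:43824294-43824593 for Klk6, each 5′ to 3′ on the + strand. Capitals mark GGGTG or its reverse complement CACCC, the core of the sequence bound by KLF factors such as Klf4, which is needed for the skin barrier.
Klk13: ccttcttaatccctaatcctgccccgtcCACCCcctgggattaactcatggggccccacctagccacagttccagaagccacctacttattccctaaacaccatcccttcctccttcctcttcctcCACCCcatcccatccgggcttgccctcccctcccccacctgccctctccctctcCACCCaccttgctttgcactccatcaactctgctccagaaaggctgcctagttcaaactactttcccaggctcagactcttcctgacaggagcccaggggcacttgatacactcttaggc
Klk10: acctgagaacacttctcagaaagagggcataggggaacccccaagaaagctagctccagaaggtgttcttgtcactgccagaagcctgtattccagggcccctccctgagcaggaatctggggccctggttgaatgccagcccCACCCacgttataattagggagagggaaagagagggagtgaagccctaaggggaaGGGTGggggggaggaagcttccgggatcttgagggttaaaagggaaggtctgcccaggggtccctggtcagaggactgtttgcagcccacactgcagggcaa
Klk7: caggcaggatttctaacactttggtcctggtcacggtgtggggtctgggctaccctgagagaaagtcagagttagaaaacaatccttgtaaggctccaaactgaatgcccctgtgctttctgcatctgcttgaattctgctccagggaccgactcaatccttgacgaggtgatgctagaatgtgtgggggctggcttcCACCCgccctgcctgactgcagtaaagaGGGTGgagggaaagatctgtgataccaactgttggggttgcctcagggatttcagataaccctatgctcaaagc
Klk6: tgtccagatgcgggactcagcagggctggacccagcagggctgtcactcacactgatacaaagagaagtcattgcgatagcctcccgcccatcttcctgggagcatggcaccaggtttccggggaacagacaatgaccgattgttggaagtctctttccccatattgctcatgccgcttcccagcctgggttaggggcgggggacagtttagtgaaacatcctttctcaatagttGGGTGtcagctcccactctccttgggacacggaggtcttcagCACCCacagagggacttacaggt
The GGGTG letters, searched on both strands, occurred in 8 of the 9 windows of the set and in 57.5% of 32851 mouse windows. Their 3 copies in the Klk13 window all read CACCC on the + strand, whereas the windows of Klk10, Klk7 and Klk6 held 1 copy in each orientation. AGAACA, the core of the androgen and glucocorticoid receptor site, occurred in 2 of the 9 windows, those of Klk10 (2 copies) and Klk14 (1 copy), against 19% of all windows. TTNNGNAA, a C/EBP site, occurred in 5 of the 9 windows and in 40.7% of all windows, and TTCNNNGAA, a STAT site, in the Klk10 window alone among the 9 and in 8.3% of all. The STAT letters in the Klk10 window do not overlap its AGAACA or GGGTG copies. TGANTCA, an AP-1 site, and TATAAA, the TATA box, were found in 0 of the 9 windows, against 7.81% and 13.6% of all windows. These matches describe letters in the windows only.

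Libraries held 8412487 to 9648154 reads. Levels are in CPM, with library sizes scaled by TMM factors of 0.927 to 1.03, and the 3 reads that a count of 0 still allows were worth 0.307 to 0.385 CPM. Such limits cover counting error only. The basal keratins Krt5 and Krt14 stood between 10016 and 17441 CPM, the sorting gene Itga6 at 317 to 373 CPM and Cd34 at 1.49 to 3.05 CPM. The first principal component (56.2% of the variance) placed female 1 (28.9) and female 2 (64.2) apart from the castrated males (-22.9 and -16.6) and males (-21.2 and -32.4). The second component (18.0%) set male 1 (41.9) apart from the other 5 libraries (-15.7 to 1.74). The 2 libraries of a group varied beyond sampling noise (chi-square over degrees of freedom 4.79 in castrated males, 13.6 in females, 12.9 in males).

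In females against males, 4 members of the set were called at an adjusted p below 0.05 in limma (Klk13, Klk6, Klk10 and Klk7), and all 4 were higher in females. Klk6 passed the filter on low reads through its female libraries alone. It is part of each member count of this comparison, as a gene tested only because females were high. With no filter on low reads, or with the 4 libraries of both groups alone in the fit, Klk13 was the 1 member called. Over all 15413 genes tested 6.1% were called in that comparison, 3.7% higher and 2.39% lower. Of the 9 members tested, 6 had both female libraries above both male libraries, as did 26.6% of all genes, and 0 had both below (27.2% of all genes). The log2 fold change was positive for 8 of the 9 (48.9% of all genes), with a median of 1.32, against -0.01 over all genes. In castrated males against males, limma called 0 of the 9 members (0.0389% of all genes, 0.013% higher and 0.026% lower), and Klk7 was the 1 member with an unadjusted p below 0.05 (5.93% of all genes). Limma with precision weights (voom) called 0 as well. Of the 9 members, 2 (Klk7 and Klk13) had both castrated male libraries above both male libraries (17.3% of all genes). Both were below for 0 members (18.2% of all genes). All 9 fold changes were above 0 there (50.2% of all genes), with a median of 0.51, against 0.00 over all genes. Genes of the granular and cornified layer lay the same way in that comparison, 19 of 22 above 0 with a median of 0.85, and what part they have in the kallikrein values was not tested. For castrated males against females 1 member, Klk13, was called, and it was lower in castrated males (1.73% of all genes were called, 1.15% lower). There 2 of 9 fold changes were above 0 (51.2% of all genes), and the median was -0.59, against 0.01 over all genes. Of the 9, 6 members had no overlap and were lower (28.3% of all genes) and 1, Spink5, had no overlap and was higher (29.4%). The 3 comparisons share their libraries in pairs, so their fold changes are not independent of each other. In bulk RNA fewer cells that express a gene and less RNA per cell cannot be told apart.

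**Figure D1:**
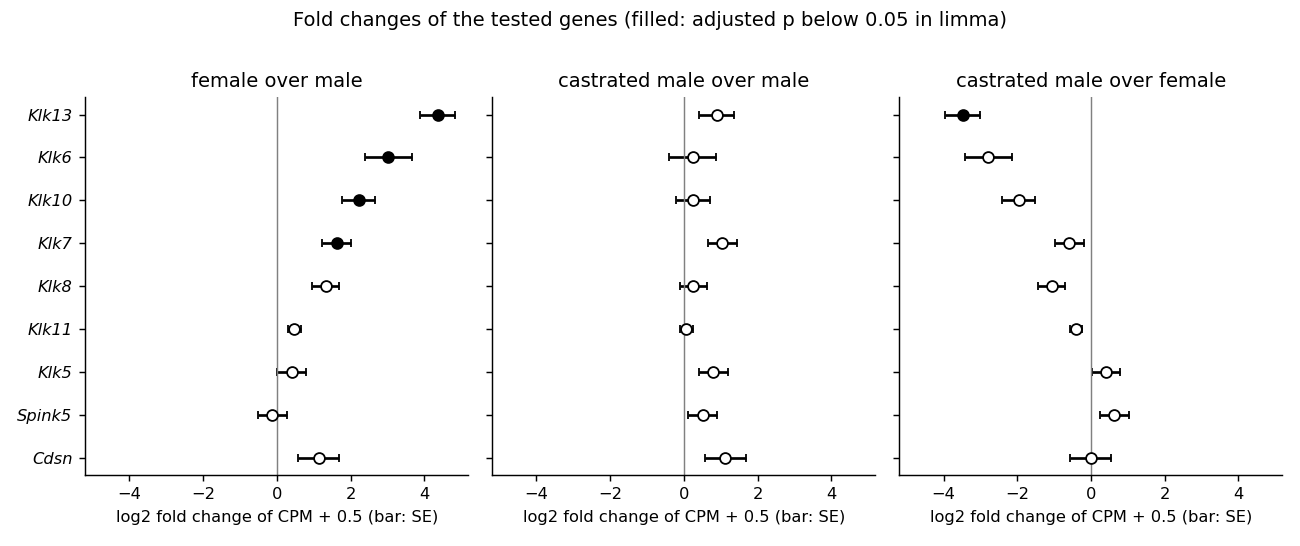
Log2 fold changes of CPM + 0.5 for the 9 members tested, with standard errors, in females over males, castrated males over males and castrated males over females. Filled points (adjusted p below 0.05 in limma) are Klk13, Klk6, Klk10 and Klk7 in the left panel and Klk13 in the right panel, and no point is filled in the middle panel.

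Klk13, a trypsin-like peptidase of stratified epithelia, had the largest difference of the set. Its level was 1.71 and 3.53 CPM in the castrated male libraries (15 and 31 reads), 19.6 and 54.1 CPM in the female libraries (192 and 422 reads) and 1.28 and 0.940 CPM in the male libraries (12 and 8 reads). The 3 groups did not overlap, and the females lay far above the other groups. In females against males the log2 fold change was 4.37 ± 0.47 (SE), with an adjusted p of 0.00382 in limma, and Klk13 ranked 32 of 15413 genes by p. This call held under every alternative run, with adjusted p from 0.00274 to 0.0393. Klk13 fell in castrated males against females (-3.48 ± 0.47, adjusted p = 0.0150 in limma). That call was lost without female 2 (adjusted p = 0.118), castrated male 1 (0.202) or castrated male 2 (0.0605), and also with no filter on low reads (0.0921) or with voom (0.0656). Between castrated males and males the fold change of 0.90 ± 0.47 did not pass the test (adjusted p = 0.909). Both castrated male libraries were above both male libraries, as in 17.3% of all genes.

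Klk6, a trypsin-like peptidase of brain and skin, was the kallikrein with the fewest reads among those tested. It had 0.114 and 0.797 CPM in castrated males (1 and 7 reads), 2.97 and 10.4 CPM in females (29 and 81 reads), and 0.639 and 0 CPM in males (6 and 0 reads). The 0 in male 2 allows up to 0.352 CPM. Both female libraries were above every other library, and castrated males and males overlapped. Klk6 passed the filter through its female libraries alone, so its test was open to the gene only because females were high. It rose in females against males by 3.02 ± 0.64 on the log2 scale (adjusted p = 0.0324 in limma). The call was lost without male 2 (adjusted p = 0.0993), castrated male 1 (0.0721) or castrated male 2 (0.0593), and without either female library Klk6 was not tested. Its fold change in castrated males against females was -2.78 ± 0.64 (adjusted p = 0.0693), which passed without male 1 (0.0425) or male 2 (0.0397). Against males it was 0.24 ± 0.64 (adjusted p = 1.00).

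Klk10, first described as a gene of normal epithelial cells, stood at 15.5 and 23.7 CPM in castrated males, 49.6 and 116.5 CPM in females, and 10.3 and 24.6 CPM in males. The female libraries were above all others, and the castrated male values lay inside the male range. Klk10 rose in females against males (2.22 ± 0.46, adjusted p = 0.0298 in limma). Without male 1 (adjusted p = 0.0775), female 2 (0.253), castrated male 1 (0.0730) or castrated male 2 (0.0589) the call was lost. Castrated males against females gave -1.96 ± 0.46 (adjusted p = 0.0709), which passed without male 1 (0.0280), male 2 (0.0272) or female 1 (0.0265). Against males the castrated males had 0.25 ± 0.46 (adjusted p = 1.00).

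Klk7, the chymotrypsin-like peptidase that degrades corneodesmosin, had 24.9 and 31.4 CPM in castrated males, 32.2 and 55.9 CPM in females, and 21.0 and 8.46 CPM in males. The groups did not overlap: females were highest, castrated males intermediate and males lowest, with female 1 close to castrated male 2. It rose in females against males by 1.63 ± 0.39 (adjusted p = 0.0468 in limma). This was the weakest of the 4 calls, and it was lost without male 2 (adjusted p = 0.113), female 2 (0.369), castrated male 1 (0.1097) or castrated male 2 (0.0921). Against males the castrated males had a fold change of 1.04 ± 0.39 (unadjusted p = 0.0273, adjusted p = 0.781 in limma), and against females one of -0.59 ± 0.39 (adjusted p = 0.408). Neither of these differences passed the test.

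**Figure D2:**
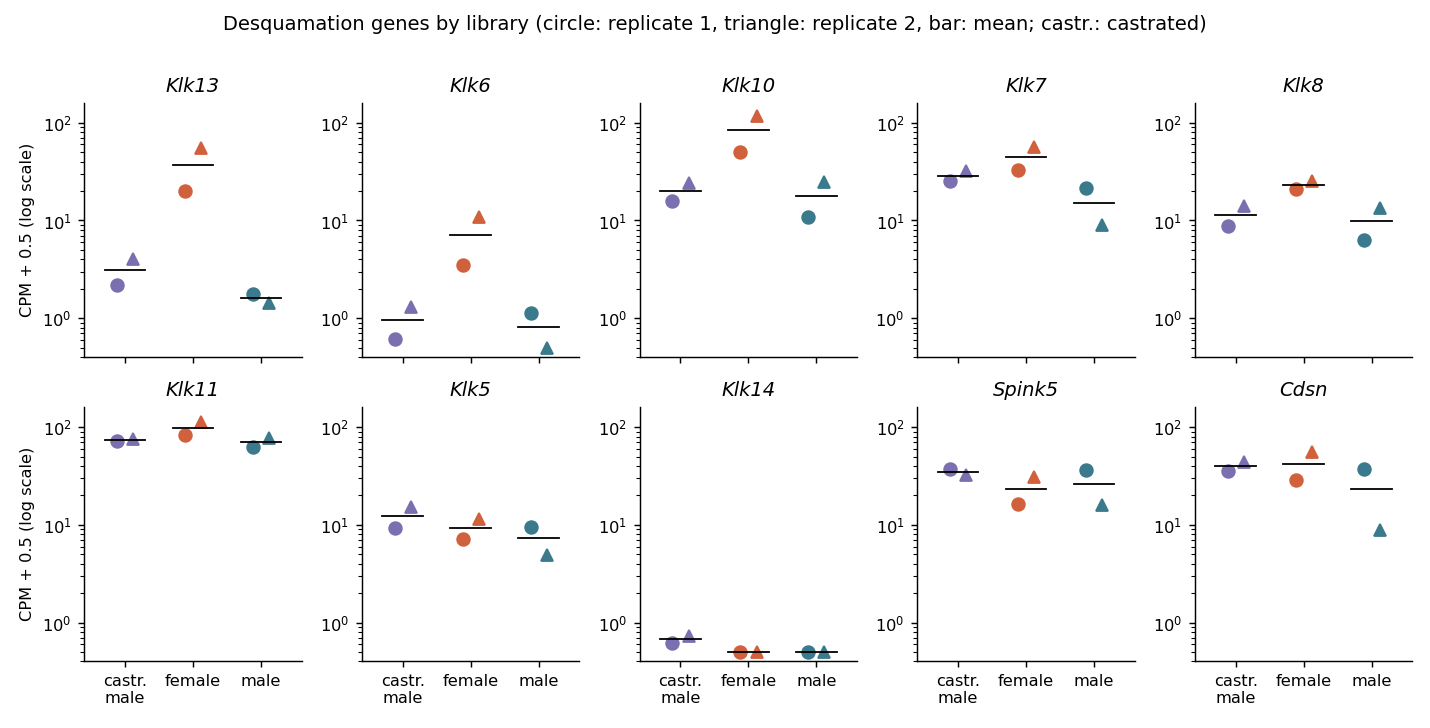
Level of each of the 10 genes in the 6 libraries (CPM + 0.5, log scale), with castrated males, females and males from left to right and the arithmetic mean of each group as a bar. The female libraries lie above all others for Klk13, Klk6, Klk10, Klk7, Klk8 and Klk11, while Klk5, Spink5 and Cdsn overlap between females and males. Of all genes tested, 26.6% had both female libraries above both male libraries, and 28.3% had both above both castrated male libraries.

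Klk8, a trypsin-like peptidase also called neuropsin, had 8.19 and 13.4 CPM in castrated males, 20.6 and 24.6 CPM in females, and 5.86 and 12.8 CPM in males. Females again stood above the other libraries, but the fold change against males of 1.32 ± 0.36 missed the threshold (adjusted p = 0.0651 in limma) and passed it without male 2 (0.0239). Against females the castrated males had a fold change of -1.06 ± 0.36 (adjusted p = 0.144), and against males, with which they overlapped, one of 0.26 ± 0.36 (adjusted p = 1.00). For Klk11, a trypsin-like peptidase with the most kallikrein reads in 5 of the 6 libraries, the values were 71.8 and 74.7 CPM in castrated males, 83.2 and 112.8 CPM in females, and 62.4 and 77.9 CPM in males. Its groups were the closest together of the 6 kallikreins that did not overlap between females and males, with a fold change of 0.47 ± 0.17 (adjusted p = 0.140), which passed without female 1 (0.0426). The castrated males gave -0.40 ± 0.17 against females (adjusted p = 0.225) and 0.07 ± 0.17 against males (adjusted p = 1.00).

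Klk5, the trypsin-like peptidase that in humans activates itself and the KLK7 precursor, overlapped between the groups. Its levels were 8.87 and 14.9 CPM in castrated males, 6.75 and 10.9 CPM in females, and 9.05 and 4.46 CPM in males, and no pair of groups was apart. The highest mean was that of the castrated males (11.9 ± 4.27 CPM), above females (8.82 ± 2.93) and males (6.76 ± 3.25; SD, n = 2 each). Fold changes were 0.40 ± 0.38 in females against males (adjusted p = 0.561), 0.80 ± 0.38 in castrated males against males (0.869) and 0.40 ± 0.38 in castrated males against females (0.572). Klk14, a trypsin-like peptidase active in human outer epidermis, was close to undetected. It had 1 and 2 reads in castrated males and 0 in each female and male library, all at or under the limit of 3 reads, so no fold is given.

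Spink5, the inhibitor, lies on chromosome 18 (chr18:43963235-44022501, + strand). It had 36.9 and 31.9 CPM in castrated males, 15.7 and 30.3 CPM in females, and 36.3 and 15.6 CPM in males. Females and males covered nearly the same range, and the castrated male libraries were above both female libraries but not above male 1. None of the comparisons passed the test. The fold change was -0.12 ± 0.39 in females against males (adjusted p = 0.872), 0.51 ± 0.39 in castrated males against males (0.990) and 0.64 ± 0.39 in castrated males against females (0.371). Without male 1 the first of these turned to 0.48 and without female 1 to 0.34.

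Cdsn, which encodes corneodesmosin, had 35.3 and 43.9 CPM in castrated males, 28.4 and 54.7 CPM in females, and 36.6 and 8.46 CPM in males. Male 2 was low, and the other 5 libraries lay between 28.4 and 54.7 CPM. The fold changes were 1.13 ± 0.56 in females against males (adjusted p = 0.250), 1.13 ± 0.56 in castrated males against males (0.890) and -0.0039 ± 0.56 in castrated males against females (0.998). Female against male passed without male 1 (2.16, adjusted p = 0.0146), which left the low male 2 as the only male library.

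**Figure D3:**
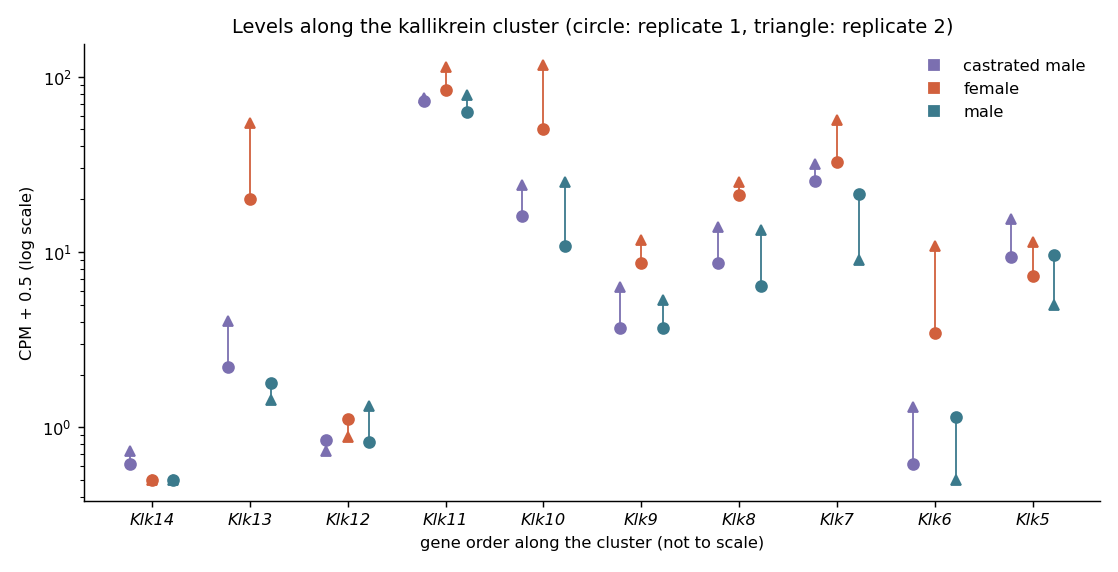
Level of 10 neighbouring kallikrein genes (CPM + 0.5, log scale) in their order along the chromosome 7 cluster, not to scale, with the members of the set and their neighbours Klk12 and Klk9. Lines join the libraries of a group, and both female libraries lie above all others at Klk13, Klk10, Klk9, Klk8, Klk6, Klk11 and Klk7, but not at Klk14, Klk12 or Klk5. The gap is smallest at Klk7 (32.2 CPM in female 1, against 31.4 in castrated male 2) and Klk11 (83.2 CPM in female 1, against 77.9 in male 2). Of all genes tested, 26.6% had both female libraries above both male libraries, and 28.3% had both above both castrated male libraries. The share above both groups at once was not counted.

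The position in the cluster did not order the fold changes between females and males. Klk13, with the largest, and Klk14, with no reads in either group, are neighbours at the upstream end of the set. Klk6 and Klk5, neighbours at the downstream end, had fold changes of 3.02 and 0.40. Of the 18 other kallikrein genes in the table, 16 had 0 reads in every library, Klk12 had 2 to 7 reads, and Klk9, which encodes a further kallikrein-related peptidase, was the 1 that could be tested. Klk9 had 3.18 and 5.81 CPM in castrated males, 8.18 and 11.3 CPM in females, and 3.20 and 4.82 CPM in males. Its females lay above the others, and the fold change against males of 1.19 ± 0.34 did not pass (adjusted p = 0.0746 in limma). The RNA 2310002F09Rik overlaps Klk8, Klk10, Klk11, Klk13 and Klk14 on the opposite strand, and no source used here says whether the counting used strand. It had 5.91 and 5.69 CPM in castrated males, 6.13 and 6.41 CPM in females, and 3.09 and 7.40 CPM in males (0.35 ± 0.36 in females against males, adjusted p = 0.592). Female and male values of this RNA overlapped, and what part its reads have in the kallikrein counts was not tested. 2310002F09Rik shares 21.7% of the 50-base stretches of the Klk8 exons, and the other tested members share 0 with any other gene.

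Per length of merged exon, levels of different genes can be set beside each other as RPKM, which is CPM per kilobase. In castrated males Klk11 led, with 48.9 and 50.9 RPKM, and the next were Klk10 (11.3 and 17.2), Klk7 (13.1 and 16.6) and Cdsn (13.2 and 16.4), whose ranges overlapped. In females Klk10 (36.1 and 84.9 RPKM) and Klk11 (56.7 and 76.9) overlapped at the top, above Klk7 (17.0 and 29.5), Klk13 (8.55 and 23.6), Cdsn (10.6 and 20.4) and Klk8 (13.3 and 16.0). Males again had Klk11 first, with 42.5 and 53.1 RPKM, well above Klk10 (7.53 and 17.9), Cdsn (13.7 and 3.16) and Klk7 (11.1 and 4.46). Klk13 was thus among the middle genes in females (8.55 and 23.6 RPKM), but in castrated males (0.743 and 1.54 RPKM) and males (0.556 and 0.409 RPKM) it lay below Klk5, Klk8 and Spink5. Spink5 had 7.70 and 6.66 RPKM in castrated males, 3.29 and 6.32 in females, and 7.59 and 3.27 in males.

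Summed over the 8 kallikreins, the level was 131 and 163 CPM in castrated males, 215 and 385 CPM in females, and 111 and 129 CPM in males. The 3 groups did not overlap in this sum, but castrated male 1 (131 CPM) and male 2 (129 CPM) lay closer together than the replicates of either group. Its make-up differed as well: Klk11 gave 54.7% and 45.9% of kallikrein reads in castrated males, 38.7% and 29.3% in females, and 56.5% and 60.3% in males. Klk10 gave 11.8% and 14.6% in castrated males, 23.1% and 30.2% in females, and 9.34% and 19.0% in males. Klk13 gave 1.30% and 2.17% in castrated males, 9.13% and 14.0% in females, and 1.16% and 0.728% in males. Females therefore had lower shares of Klk11 and higher shares of Klk10 and Klk13 than every other library. The share of Klk7 was 14.5% to 19.3% in all libraries except male 2, where it was 6.55%. Relative to the reads of the inhibitor Spink5, the kallikrein sum was 3.56 and 5.10 times as high in castrated males, 13.6 and 12.7 times in females, and 3.04 and 8.26 times in males, without correction for gene length. The female ratios lay above all others, and these sums and ratios were not tested.

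**Figure D4:**
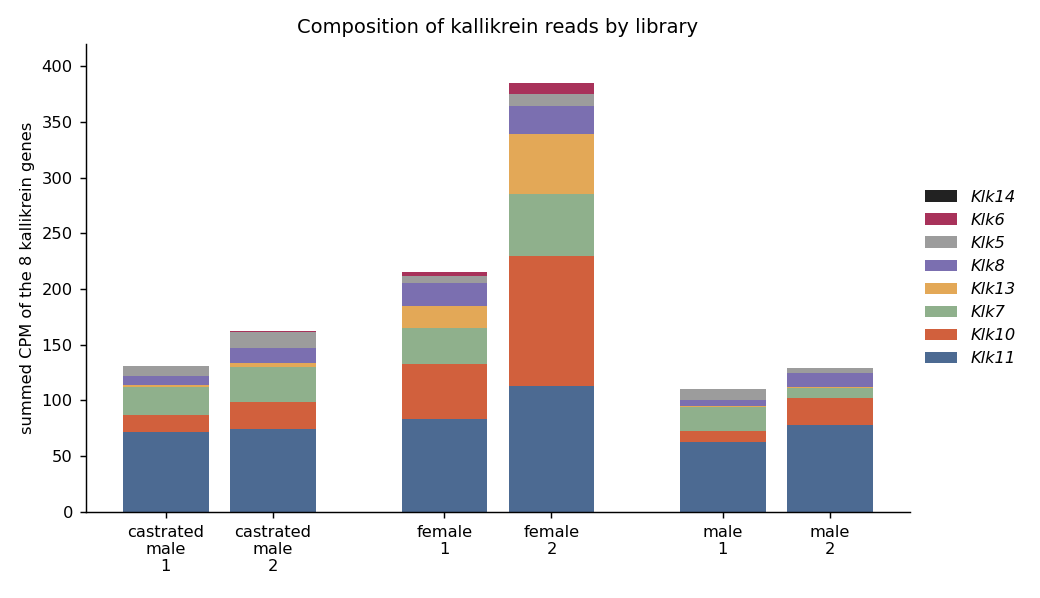
Summed CPM of the 8 kallikrein genes in each library, split by gene. Female bars reach 215 and 385 CPM, against 131 and 163 in castrated males and 111 and 129 in males, and the added height in females is mostly Klk10 and Klk13.

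Replicates of a group also separated the set. Female 2 was above female 1 for every tested member, by 3.50 times for Klk6, 2.76 times for Klk13, 2.35 times for Klk10 and 1.93 times for Cdsn. The gap between the female libraries was smallest for Klk8. Castrated male 2 was above castrated male 1 for every tested member except Spink5. Male 1 was above male 2 for Klk5, Klk6, Klk7, Klk13, Spink5 and Cdsn, by 2.03 times for Klk5, 2.48 times for Klk7, 2.32 times for Spink5 and 4.33 times for Cdsn. Male 2 was above male 1 for Klk8 (2.19 times), Klk10 (2.38 times) and Klk11 (1.25 times). Over the 6 libraries, which share their groups and their depth, log2 profiles correlated with Pearson's r of 0.96 for Klk8 and Klk10, 0.98 for Klk10 and Klk11, 0.97 for Klk6 and Klk13, 0.91 for Klk7 and Cdsn and 0.88 for Klk5 and Cdsn. Klk13 was also close to Klk10 (0.92), Klk11 (0.87) and Klk8 (0.85), whereas r was 0.09 for Klk8 and Cdsn and 0.01 for Klk5 and Klk8. Spink5 had r of 0.76 with Klk5 and -0.50 with Klk8. These 6 points describe the libraries and carry no test.

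The genes whose profile over the 6 libraries was most like the mean standardised profile of the 7 tested kallikreins were Ripk3, a kinase of necroptosis, Ftsj1, a tRNA methyltransferase, Impa2, an inositol monophosphatase, Zfp750, a transcription factor of epidermal differentiation, and Ugt1a1, a glucuronosyltransferase (Pearson's r of 0.995 to 0.998, 6 libraries). Of these, Zfp750 had 41.4 and 50.8 CPM in castrated males, 60.3 and 94.6 CPM in females, and 33.9 and 31.8 CPM in males. Its groups did not overlap, with castrated males between females and males. With the mean profile of the other kallikreins, each tested kallikrein had an r of 0.78 to 0.96, except Klk5 with 0.28. Cdsn had an r of 0.59 and Spink5 one of -0.00 with the kallikrein profile.

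Other proteases of the epidermis moved in part with the kallikreins. Of 16 tested, 4 rose in females against males (Prss27, Tmprss4, Asprv1 and Tmprss13) and 1 fell (Ctsl), with a median log2 fold change of 0.31, against -0.01 over all genes. Among all genes tested, 3.7% rose and 2.39% fell in that comparison. Prss27 passed the filter on low reads through its female libraries alone (at most 0.797 CPM elsewhere), so 3 of the 4 rises were in genes open to the test without females. Asprv1, which encodes the protease that processes filaggrin, had 53.6 and 74.8 CPM in castrated males, 57.1 and 108.1 CPM in females, and 34.0 and 15.3 CPM in males (1.76 ± 0.39 in females against males, adjusted p = 0.0353 in limma). Tmprss4, a membrane-bound serine protease, had 26.0 and 29.8 CPM in castrated males, 41.6 and 88.0 CPM in females, and 24.5 and 12.2 CPM in males (1.78 ± 0.38, adjusted p = 0.0321). Ctsl, the lysosomal cathepsin L, had 272.6 and 269.5 CPM in castrated males, 171 and 164 CPM in females, and 299 and 306 CPM in males (-0.85 ± 0.11, adjusted p = 0.00712), and it was higher in castrated males than in females (0.69 ± 0.11, adjusted p = 0.0243). Without male 2, female 2, castrated male 1 or castrated male 2, 0 of the 16 were called higher in females than in males. Without female 2, 0 were called lower. The call of Ctsl between castrated males and females was lost without female 2, castrated male 1 or castrated male 2.

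Among 15 tested inhibitors of serine proteases other than Spink5, 5 rose and 0 fell in females against males (Serpinb3a, Wfdc17, Wfdc12, Serpinb12 and Serpinb1a), with a median of 0.31. The shares over all genes were 3.7% and 2.39%. Wfdc17 and Wfdc12, with at most 0.114 and 0.228 CPM outside females, were tested through their female libraries alone, which leaves 3 rises among the other 13. Serpinb3a, a clade B serpin of squamous epithelia, had 10.5 and 12.2 CPM in castrated males, 87.6 and 95.1 CPM in females, and 4.58 and 7.87 CPM in males (3.82 ± 0.24, adjusted p = 0.000196 in limma). Serpinb12 had 18.9 and 29.1 CPM in castrated males, 42.8 and 44.6 CPM in females, and 15.8 and 3.05 CPM in males (2.54 ± 0.57, adjusted p = 0.0378). Wfdc12, a small secreted inhibitor, had 0 and 2 reads in castrated males, 20 and 34 in females and 0 in both male libraries. Serpinb3a, Wfdc17 and Wfdc12 fell in castrated males against females (3 of 15, against 1.15% of all genes), only the first of them open to the test without females, and 0 rose. Leaving out 1 library at a time gave 1 to 4 rises in females against males, the lowest without female 2, and 1 to 3 falls in castrated males against females, the lowest without female 2, castrated male 1 or castrated male 2.

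Genes of the junctions that the kallikreins cut were called in both directions. Of 15 tested desmosome genes, 2 were called in females against males (6.1% of all genes), and the median was -0.13. Dsc2, a desmocollin, rose, and Dsg1a, a desmoglein whose human orthologue is cleaved by KLK5 and KLK14, fell. In limma 7 of the 15 had an unadjusted p below 0.05 (24.9% of all genes), 3 higher and 4 lower in females. Dsg1a had 998 and 1085 CPM in castrated males, 699.8 and 561 CPM in females, and 1048 and 981 CPM in males (-0.69 ± 0.14 in females against males, adjusted p = 0.0301 in limma). It was higher in castrated males than in females (0.73 ± 0.14, adjusted p = 0.0471 in limma), the 1 desmosome gene called there (1.73% of all genes). Dsg1a has near-identical copies, Dsg1b and Dsg1c, so the division of its reads is uncertain. Without female 2, castrated male 1 or castrated male 2, 0 desmosome genes were called in either comparison. In females against males 0 were called without male 1, and without male 2 there were 1 rise and 0 falls.

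Of 11 tested genes of signalling, transcription and sterol metabolism around desquamation, 2 rose (Ovol1 and Cebpa) and 3 fell (Tslp, F2r and Klf4) in females against males, with a median of 0.17. The shares over all genes were 3.7% higher and 2.39% lower. Klf4 had 175.6 and 174 CPM in castrated males, 115 and 81.9 CPM in females, and 183 and 163 CPM in males (-0.83 ± 0.16, adjusted p = 0.0273 in limma). Its direction was opposite to that of the 4 called kallikreins. The GGGTG letters shown above occurred in 57.5% of all windows, and a link between Klf4 and the kallikreins was not tested. Ovol1, a transcription factor of keratinocyte differentiation, had 55.7 and 60.6 CPM in castrated males, 89.2 and 114 CPM in females, and 44.5 and 48.2 CPM in males (1.12 ± 0.15, adjusted p = 0.00884). Klf4 was higher and Ovol1 lower in castrated males than in females (adjusted p = 0.0459 and 0.0449), and both calls were lost without female 2, castrated male 1 or castrated male 2. Tslp, a cytokine that in Netherton models lies downstream of Klk5, had 10.4 and 9.22 CPM in castrated males, 7.67 and 6.28 CPM in females, and 33.8 and 18.3 CPM in males (-1.77 ± 0.29, adjusted p = 0.0160). Leaving out 1 library at a time gave 0 to 1 rises and 0 to 3 falls in females against males, and 0 of both without female 2. Between castrated males and males limma called 0 of the 57 proteases, inhibitors, desmosome and signalling genes (0.0389% of all genes). An unadjusted p below 0.05 was found for 12 of the 57 (5.93% of all genes). Of these, 7 were inhibitors, 5 higher and 2 lower in castrated males.

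Among markers of other cell states, most wound genes moved with the kallikreins, while the leukocyte and infundibulum lists did so through some of their genes only. The part of these markers in the kallikrein differences was not tested. The summed level of 16 wound and hyperproliferation genes was 1175 and 1280 CPM in castrated males, 2215 and 4648 CPM in females, and 1271 and 1343 CPM in males. Of the 16, 11 rose and 1 fell in females against males (3.7% and 2.39% of all genes). Of the 11, S100a8, S100a9, Sprr2h and Lcn2 needed their female libraries to pass the filter, and 7 of the other 12 genes rose. S100a8, a calprotectin subunit, had 9 and 10 reads in castrated males, 1705 and 4848 in females, and 5 and 3 in males. The sum of 21 leukocyte genes was 400.5 and 467 CPM in castrated males, 1076 and 2352 CPM in females, and 379 and 426 CPM in males, and 4 of 9 tested rose, namely Cd74, H2-Aa, H2-Ab1 and Cxcr2. The MHC class II genes Cd74, H2-Aa and H2-Ab1 made up 93.6% to 98.6% of the sum. The other 18 genes, a split chosen after their values were seen, summed to 20.02 and 20.9 CPM in castrated males, 17.7 and 32.2 CPM in females, and 24.2 and 19.7 CPM in males, which overlap. Of the 9 tested 5 were above 0 in females against males, and Cd207, a Langerhans cell gene, and Cd3e, a T cell gene, had fold changes of -0.28 and -0.54 (adjusted p = 0.568 and 0.505). Of that list 6 to 8 genes were at 0 in each library. The neutrophil genes Elane and Ly6g had 0 and at most 1 read per library. Ptprc, the leukocyte gene CD45, had 4.66 and 3.19 CPM in castrated males, 2.56 and 3.72 CPM in females, and 2.24 and 4.46 CPM in males. For 20 infundibulum and sebaceous gland genes the sum was 1335 and 1455 CPM in castrated males, 2168 and 3106 CPM in females, and 1822 and 1584 CPM in males, with 4 of 20 called higher (Fabp5, Krt6a, Krt6b and Defb6) and 0 lower. Most of that list did not lie this way: 8 of 20 were above 0 in females against males and the median was -0.02. Krt79, Cidea and Elovl3 had both female libraries below both male libraries (fold changes of -0.28, -0.56 and -0.51), as did 27.2% of all genes. Krt17, Krt6a, Krt6b, Defb6, Fabp5 and Mgst1 had both above (26.6% of all genes). Krt17, also a wound gene, had 441 and 477 CPM in castrated males, 724 and 1310 CPM in females, and 383 and 568 CPM in males. In both female libraries Krt17 had the highest level of the infundibulum list. Lower in castrated males than in females were 10 of 16 wound genes, 3 of 9 leukocyte genes and 6 of 20 infundibulum and sebaceous gland genes (1.15% of all genes). These counts fell to 3, 0 and 0 without castrated male 1, to 4, 0 and 1 without castrated male 2 and to 4, 2 and 1 without female 2. The wound list shares genes with the inhibitor, granular and infundibulum lists, Serpinb3a and Krt6a among them.

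Markers of the epidermal layers also differed between the groups. The 22 granular and cornified layer genes, the layer in which kallikreins are known to be made, summed to 10653 and 11429 CPM in castrated males, 9275 and 9739 CPM in females, and 9514 and 9626 CPM in males. The keratin Krt2 alone gave 88.4% to 95.2% of this sum. The other 21 genes, a split chosen after the values were seen, summed to 584.5 and 686 CPM in castrated males, 682 and 1133 CPM in females, and 458 and 496 CPM in males, so that female 2 was highest and the males lowest, as for the kallikrein sum. Gene by gene, 8 of the 22 rose and 2 fell in females against males (3.7% and 2.39% of all genes). In that comparison 18 were above 0 (48.9% of all genes), and the median was 1.03. Rptn and Lce3c, 2 of the 8, passed the filter through their female libraries alone. In castrated males against males limma called 0 of the 22, but 9 had an unadjusted p below 0.05 (5.93% of all genes), all 9 higher in castrated males. Flg, filaggrin, had 25.0 and 55.2 CPM in castrated males, 43.8 and 74.5 CPM in females, and 21.9 and 5.99 CPM in males, with male 2 lowest, as for Klk7 and Cdsn. Lce1m and Flg2, also of this list, went the other way, with both female libraries below all others. Lce1m had 18.8 and 18.2 CPM in castrated males, 1.94 and 1.15 CPM in females, and 7.88 and 10.6 CPM in males. For Flg2 the values were 18.5 and 20.3 CPM in castrated males, 4.09 and 2.18 CPM in females, and 9.59 and 7.40 CPM in males. Lor, loricrin, had 0.822 to 3.98 CPM in all libraries. Of 10 spinous layer genes 3 rose (Krt1, Ptgs1 and Krtdap) and 0 fell. The 14 basal genes summed to 49699 and 49755 CPM in castrated males, 45701 and 48075 CPM in females, and 47030 and 53241 CPM in males. Of the 14, 2 were called higher and 1 lower in females against males, 5 were above 0, and the median was -0.25. At an unadjusted p below 0.05 in limma, 7 were lower and 2 higher in females (24.9% of all genes in either direction). Leaving out 1 library at a time gave 0 to 9 rises in the granular list, 0 to 4 in the spinous list, 4 to 12 in the wound list, 3 to 4 in the leukocyte list and 1 to 5 in the infundibulum list, and the spinous and wound counts were lowest without female 2. The granular count was 0 without female 2, castrated male 1 or castrated male 2. Of 8 hair follicle genes and 7 genes of melanocytes, fibroblasts, endothelium, muscle and Merkel cells, limma called 0 in every comparison. At an unadjusted p below 0.05 were at most 3 of the 8 (females against males, 24.9% of all genes) and 1 of the 7 (castrated males against males, 5.93%).

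**Figure D5:**
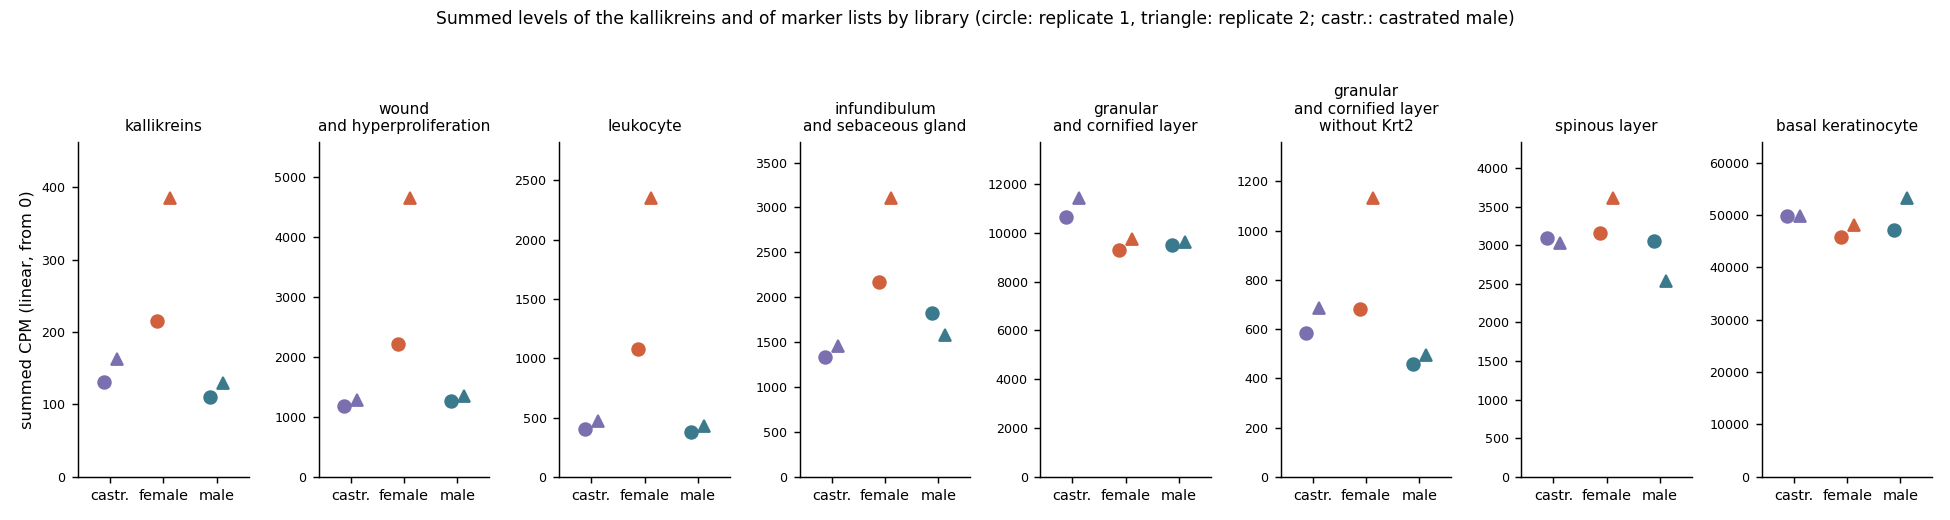
Summed CPM per library of the kallikreins, of 6 marker lists and of the granular list without Krt2, on linear axes from 0, with castrated males, females and males from left to right. The kallikrein, wound and leukocyte sums are highest in female 2 and next in female 1, as is the infundibulum sum. The granular and basal sums are not highest in females, but Krt2 carries the granular one, and without it female 2 (1133 CPM) is highest and the males (458 and 496 CPM) are lowest.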

How the data were processed

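Gene expression was measured by RNA sequencing in 6 libraries, 2 per group. The submitters' processing notes name STAR 2.7.5a, HTSeq 0.11.1, FastQC and Picard, and the builds mm10 and GRCm38. Annotation and strand setting are not given in the labels. The values are scores as deposited: reads per gene had been scaled to a total of 20000000 in each library and rounded. All values lay within the rounding error of a multiple of 1 step per library, and division by that step gave whole reads. TMM factors, trimmed means of log ratios, were computed on these reads.

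Genes with at least 1.16 CPM, the worth of 10 reads at the median depth, in 2 libraries, and 15 reads over all libraries, were kept (15413 genes). The test was limma 3.58.1 (R 4.3.3) on log2(CPM + 0.5), with 1 mean per group, a trended prior variance and 3 residual degrees of freedom. P-values are two-sided, Benjamini-Hochberg adjusted over all genes tested, and called below 0.05. For genes with few reads these fold changes are understated. The procedure was tested on simulated data with the same dispersion for every gene and library. The real groups differed in spread, so that test cannot show how well the calls hold here. Gene positions and exon lengths are from GENCODE M21 (GRCm38), and promoter windows from RefSeq.

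The genes of the set, the 13 gene lists and the tests were chosen with earlier results of these data known. Beside the 10 members, the rule for named genes took up to 4 genes with the smallest p per list and comparison, and the 5 genes averaging 5 CPM or more that were most like the kallikrein profile. Tmprss13, Serpinb1a, Cebpa, Klk12 and single marker genes outside this rule were chosen after their values were seen. Replicate numbers come from the titles and did not pair the libraries, and the second male library carries another number in its name. Alternatives covered the scaling, filter, pseudocount, weights, replicate block, samples in the fit and each library left out.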

Additional observations from a re-analysis of the deposited data

How the results depend on the processing

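Klk13 in females against males kept its call in all 15 settings, with log2 fold changes from 3.49 to 5.10. Of the 4 members called there, 1 was called with no filter on low values, 2 with a pseudocount of 0.1 CPM, 2 with precision weights (voom, chosen after seeing the data) and 1 with the 4 libraries of both groups alone. Leaving out 1 library at a time gave 1 to 4, the lowest without female 2, castrated male 1 or castrated male 2. In castrated males against females the 1 call became 0 with no filter, 0 with voom and 3 with 4 libraries, and 0 to 3 without 1 library. No filter tests more genes and 4 libraries leave fewer residual degrees of freedom by construction, and the cause of the other changes was not tested.

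Over all genes, the 940 calls in females against males became 103 with no filter and 265 with 4 libraries, and 49 (without female 2) to 1773 (without female 1) with 1 library left out. The 6 calls in castrated males against males became 2 with no filter, 11 with a pseudocount of 2 CPM and 1 (without either castrated male library) to 74 (without male 2). The 266 calls in castrated males against females became 33 with no filter, 88 with voom, 560 with 4 libraries and 21 (without castrated male 1) to 1323 (without female 1).

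The replicate numbers did not pair the libraries (deviations correlated at 0.19 between castrated males and females, -0.01 between castrated males and males and -0.15 between females and males). With the replicate block, 817 genes and 4 members were called in females against males, Klk8 in place of Klk7 (adjusted p = 0.0300 and 0.0733), 5 genes and 0 members in castrated males against males, and 162 genes and 2 members in castrated males against females.

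Some values near 0 changed sign. Leaving out 1 library at a time, Klk5 ran from -0.10 to 0.88 and Spink5 from -0.75 to 0.48 in females against males. Between castrated males and males, Klk6 ran from -0.35 to 0.83, Klk8 from -0.27 to 0.79, Klk10 from -0.35 to 0.86, Klk11 from -0.083 to 0.23 and Spink5 from -0.086 to 1.11. Cdsn in castrated males against females ran from -0.47 to 0.47, and was 0.072 with library totals only, 0.022 with voom and 0.019 with 4 libraries. Count models on the recovered reads (edgeR and DESeq2) were planned and not run. At this depth Klk14 and most other kallikreins were under the limit of 3 reads.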
